A study of Mus musculus with 6 samples.

Results

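In epididymal white adipose tissue (WAT) after timed sleep restriction (TSR), the RNA of 3 of 5 matrix protease inhibitors (Timp2, Timp3 and Reck) fell and that of Timp4 rose, and among the proteases Adamts1 and Mmp11 rose whereas Mmp23, Mmp2 and Adam8 fell. These changes lay between 0.35 and 0.84 on the log2 scale in either direction, by the brightest probe set of each gene and with 3 arrays per group. The fall of Timp2 was not called when all its probe sets were averaged. Among all tested genes, 24.0% were called higher and 23.0% lower (limma, adjusted p below 0.05). The genes described here are the matrix metalloproteinases (Mmp), the ADAM and ADAMTS proteases, the ADAMTS-like proteins, the plasminogen activators Plau and Plat, the urokinase receptor Plaur, the tissue inhibitors of metalloproteinases (Timp1 to Timp4) and Reck. They were chosen by symbol alone, as all probe sets annotated to exactly 1 such gene, which gave 88 of the 22690 probe sets and 58 of the 12393 genes on the array. Of these genes, 50 were proteases by family, 5 were inhibitors, 2 were ADAMTS-like and 1 was the receptor.

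The samples were 3 TSR and 3 control samples of whole epididymal WAT from adult wild-type male C57BL/6 mice, 1 array each. TSR mice were kept awake by gentle handling for 6 h per day on 5 days in a row, starting at lights on, and were killed at ZT18 (ZT0 is lights on) of the last day, 12 h after that day's handling had ended. Control mice were left undisturbed and killed at the same ZT, and both groups had free access to chow. No source used here says whether each array held 1 animal or a pool, so every p-value speaks of the spread among these 6 samples, which may be technical. In bulk tissue, fewer cells of a type and less RNA per cell cannot be told apart.

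Matrix metalloproteinases are zinc enzymes that cut collagens, proteoglycans and other matrix proteins, and adipose tissue uses them when its adipocytes enlarge and its vessels grow. ADAM proteases sit in the plasma membrane and release the outer part of growth factors, cytokine receptors and Notch ligands, although several ADAM proteins lack an active catalytic site, and ADAMTS proteases are secreted and cut proteoglycans such as versican and aggrecan. TIMP proteins bind to the active site of these enzymes, Reck is an inhibitor anchored in the membrane, and plasminogen activators make plasmin, which can activate latent metalloproteinases.

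Deposited values were MAS5 signals on a linear scale, which MAS5 scales to the same target on each array. Median signals lay between 135.8 and 141.2 in TSR arrays and between 126.7 and 130.7 in control arrays, so they did not overlap between groups. The 25th percentiles lay between 20.77 and 25.2 over the 6 arrays. Log2 signals correlated with r of 0.991 to 0.993 within groups and 0.962 to 0.965 across groups. Probe sets with a mean log2 signal below 5.45, a signal of 43.8, were called near background and were not part of the main test. The other 14707 were compared with limma on log2 signals with Benjamini-Hochberg adjustment over all of them, and a probe set with an adjusted p below 0.05 was called higher or lower. Log2 fold changes are TSR minus control. Signals of different probe sets are not comparable as RNA levels, and the brightest probe set is only the one chosen to stand for its gene. All 8 adipocyte markers measured were above the background limit, with 3 called higher and 5 lower. Beside the results on member genes, 9 of 10 macrophage markers were called lower (summed signal of the list 17710 to 18040 in TSR arrays, 26450 to 27290 in control arrays) and so were 7 of 9 fibroblast and progenitor markers (30470 to 33150 in TSR arrays, 44700 to 48450 in control arrays), with 1 higher. Dendritic cell markers (6 of 6 tested), neutrophil markers (3 of 4) and markers of dividing cells (3 of 3) were also called lower, with no marker called higher. Mki67, Cdk1 and Camp had TSR means under the limit of 43.8 (34.68 to 40.64), so they entered the test through the control arrays. The neutrophil list holds the members Mmp8 and Mmp9, and 4 of its 9 measured genes had a higher mean in TSR arrays. Of 12 hepatocyte markers measured, 11 had a higher mean signal in TSR arrays, and 8 of the 9 tested were called higher and 1 lower. Among those called higher, Apoa1, Fabp1, Apob and Cps1 had control means under the limit of 43.8 (18.88 to 30.65). They thus entered the test through the TSR arrays. The lists of endothelium (7 tested, 3 higher and 2 lower) and mesothelium (6 tested, 1 higher and 2 lower) had calls in both directions. Among all 8619 tested genes, 24.0% were called higher and 23.0% lower. The part of all these lists in the results was not tested.

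The upstream sequences of 4 genes are printed because they stand for the patterns that follow. Timp4 was the inhibitor that was higher, Timp2 and Timp3 were the brightest inhibitors that were lower, and Adamts1 had the largest rise among tested proteases. Each line gives the 250 bases before the RefSeq start (GRCm38.p6), 5′ to 3′ on the strand of the gene, at chr6:115252206-115252455 (minus strand) for Timp4, chr11:118355412-118355661 (minus) for Timp2, chr10:86300162-86300411 (plus) for Timp3 and chr16:85803114-85803363 (minus) for Adamts1. Capitals mark letters that match the GC box GGGCGG, the E-box CACGTG, the AP-1 motif TGANTCA or the TATA box TATAAA on either strand.
Timp4: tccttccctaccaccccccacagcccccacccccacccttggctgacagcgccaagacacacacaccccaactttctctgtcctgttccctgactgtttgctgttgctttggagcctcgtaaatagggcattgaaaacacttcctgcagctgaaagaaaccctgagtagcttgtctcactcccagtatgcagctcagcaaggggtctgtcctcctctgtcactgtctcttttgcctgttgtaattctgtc
Timp2: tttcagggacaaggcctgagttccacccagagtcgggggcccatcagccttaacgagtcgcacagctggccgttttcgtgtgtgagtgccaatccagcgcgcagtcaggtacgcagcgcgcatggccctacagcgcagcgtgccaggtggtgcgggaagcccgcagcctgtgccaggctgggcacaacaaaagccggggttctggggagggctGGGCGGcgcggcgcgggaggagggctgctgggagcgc
Timp3: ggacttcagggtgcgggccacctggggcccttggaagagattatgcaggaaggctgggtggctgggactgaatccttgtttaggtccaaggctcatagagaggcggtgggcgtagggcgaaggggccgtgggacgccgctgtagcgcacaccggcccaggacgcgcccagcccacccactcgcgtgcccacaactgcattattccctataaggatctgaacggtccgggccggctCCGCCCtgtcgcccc
Adamts1: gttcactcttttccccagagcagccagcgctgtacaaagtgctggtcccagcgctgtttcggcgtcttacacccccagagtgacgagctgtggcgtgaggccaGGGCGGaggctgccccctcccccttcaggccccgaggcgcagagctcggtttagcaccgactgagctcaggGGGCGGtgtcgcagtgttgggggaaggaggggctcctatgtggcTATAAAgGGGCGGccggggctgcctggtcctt

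Timp4 held none of the 4 motifs and had a GC content of 53.6%. Timp2 and Timp3 held 1 GC box each, at GC contents of 68.0% and 65.6%. Adamts1 held 3 GC boxes and 1 TATA box, with 1 base between it and the GC box nearest to the start, at 65.6% GC. Promoters were matched for 32 of the 58 genes. The GC box stood in 15 of these 32 (46.9%), against 32.9% of all 27025 promoters, and the AP-1 motif in 7 of them (21.9%), against 6.9%. None of the 7 with the AP-1 motif belonged to the 4 genes with a promoter that were called higher or to the 8 called lower. The E-box (6.2% of members, 6.0% of all) and the TATA box (18.8% and 13.0%) completed the search. Median GC content was 54.8% for members and 52.0% for all. A match describes letters, not a bound site.

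Of the 58 genes, 31 had a probe set above the background limit. Taking the brightest probe set for each gene, 5 of the 31 were called higher and 13 lower (16.1% and 41.9%), against 24.0% higher and 23.0% lower among all 8619 tested genes. Over probe sets, 10 of 51 were called higher and 19 lower, against 25.6% and 21.0% of all tested probe sets. The TSR and control signals did not overlap in 33 of the 51 member probe sets, against 56.6% of all tested probe sets. The median log2 fold change was −0.11 over the 31 member genes and 0.01 over all tested genes.

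**Figure D1:**
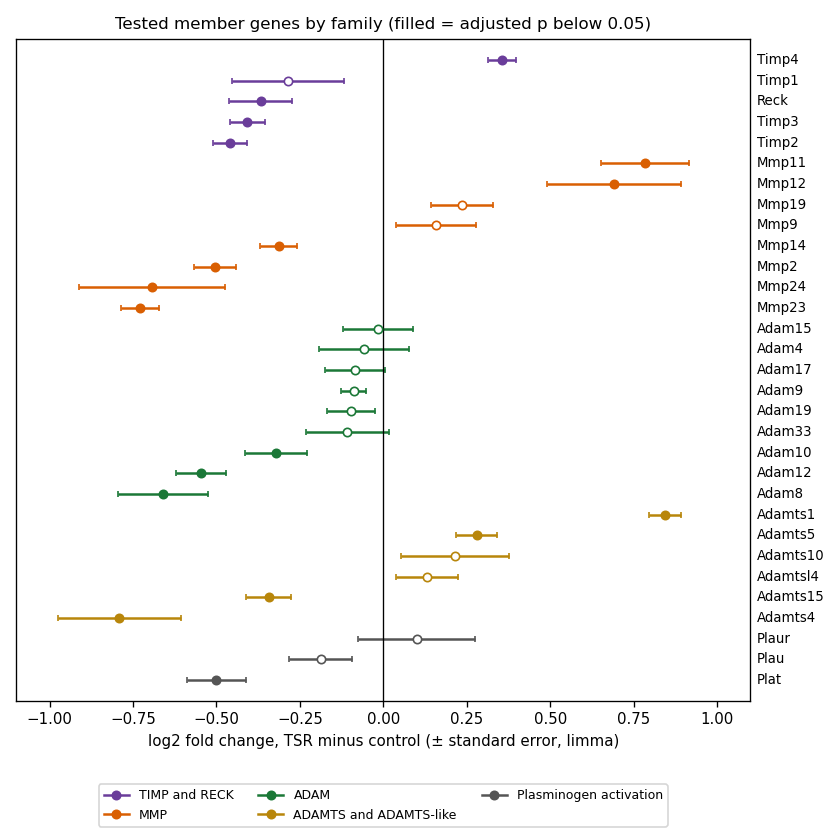
Log2 fold change (TSR minus control, x axis) of the 31 tested member genes, each by its brightest probe set and grouped by family, with the limma standard error as bars (3 arrays per group). Filled points are the 5 genes called higher and the 13 called lower; Adamts1 has the largest rise and Adamts4 the largest fall.

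All 5 inhibitors were measured above background. By their brightest probe sets, 1 was called higher (Timp4), 3 were called lower (Timp2, Timp3 and Reck) and Timp1 was not called. The shares over all tested genes were 24.0% higher and 23.0% lower. The median log2 fold change of the 5 genes was −0.37.

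Timp4, a secreted TIMP that is abundant in adipose tissue and heart, was higher in TSR WAT on both of its probe sets. The first (1423405_at) had signals of 9448, 9453 and 9266 in TSR arrays, against 7408, 7277 and 7339 in control arrays. The second (1450974_at) had 4483, 4608 and 4325 in TSR arrays, against 2312, 2341 and 2293 in control arrays. On both, every TSR array lay above every control array. The log2 fold change was 0.35 ± 0.04 (SE, adjusted p = 0.000182) on the first and 0.95 ± 0.04 (adjusted p = 7.9e-07) on the second, so the direction was shared and the size was not.

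Timp2, which inhibits metalloproteinases but also helps Mmp14 to activate the Mmp2 proenzyme, was lower on the probe set with the highest signal. That probe set (1454677_at) had 3292, 3290 and 3089 in TSR arrays, against 4283, 4689 and 4339 in control arrays, a log2 fold change of −0.46 ± 0.05 (SE, adjusted p = 0.000137). A further probe set (1460287_at) had 1896, 1992 and 1877 in TSR arrays, against 2794, 2895 and 2764 in control arrays (−0.55 ± 0.04, adjusted p = 2.08e-05). The groups did not overlap on either. The remaining Timp2 probe sets did not share this fall. One (1433662_s_at) had 2795, 2930 and 2828 in TSR arrays and 2913, 3093 and 3103 in control arrays, a log2 fold change of −0.09 (adjusted p = 0.127). Another (1450040_at) had 841.1, 939.7 and 880.0 in TSR arrays and 819.7, 884.4 and 868.8 in control arrays, a log2 fold change of 0.05 (adjusted p = 0.527). Both overlapped between groups. A dim one (1420924_at) was called in the opposite direction, with 122.2, 113.6 and 124.9 in TSR arrays and 78.8, 84.8 and 66.56 in control arrays (0.65 ± 0.14, adjusted p = 0.0044). The sixth (1437081_at) was near background. Timp2 RNA thus had 2 probe sets called lower and 1 called higher of 5 tested, and with the 5 averaged its log2 fold change was −0.08 ± 0.05 (limma, adjusted p = 0.168).

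Timp3, which binds to the matrix and also inhibits Adam17 and the ADAMTS enzymes, was lower on 3 of 4 tested probe sets. The brightest (1419089_at) had 2620, 2692 and 2511 in TSR arrays, against 3263, 3596 and 3517 in control arrays (log2 fold change −0.41 ± 0.05, adjusted p = 0.000273). The next (1449335_at) had 2516, 2663 and 2468 in TSR arrays, against 3241, 3461 and 3341 in control arrays (−0.39 ± 0.05, adjusted p = 0.000217). On these, all TSR signals were below all control signals. One more (1449334_at) had 399, 377 and 424 in TSR arrays, against 495, 492 and 441 in control arrays (−0.25 ± 0.07, adjusted p = 0.0208), and its adjusted p rose to between 0.0578 and 0.0728 when control array 1 or 2 or TSR array 1 or 2 was left out. The dimmest (1419088_at) had 71.37, 58.55 and 50.35 in TSR arrays and 54.72, 47.36 and 54.68 in control arrays, which overlapped (0.19, adjusted p = 0.435).

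Reck had 243.1, 273.3 and 252.3 in TSR arrays, against 334.8, 294.2 and 365.7 in control arrays. The groups did not overlap, and the log2 fold change was −0.37 ± 0.10 (SE, adjusted p = 0.0124), which did not pass with the methods' t-test (0.0703 on linear and 0.0616 on log2 signals). Timp1, a TIMP that many cells make when stimulated, had 66.69, 65.76 and 91.09 in TSR arrays and 84.66, 86.82 and 98.32 in control arrays. These signals were low and overlapped, and the log2 fold change of −0.29 ± 0.17 was not called (adjusted p = 0.196). In RefSeq, Timp1, Timp3 and Timp4 each lie within a synapsin gene (Syn1, Syn3 and Syn2).

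**Figure D2:**
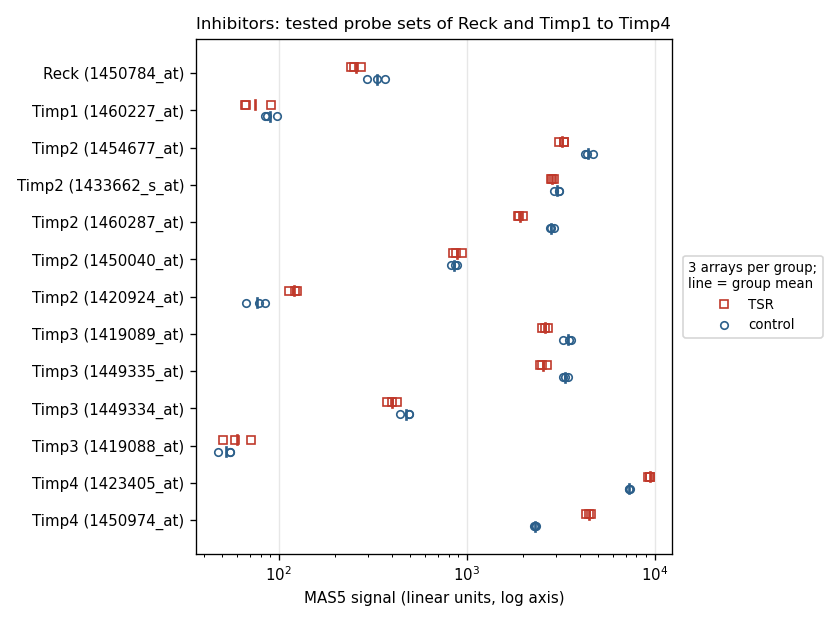
MAS5 signal (linear units on a log axis) of the 13 tested inhibitor probe sets in 3 TSR arrays (squares) and 3 control arrays (circles), with a line at each group mean. Both Timp4 probe sets lie higher in TSR arrays, and the brightest probe sets of Timp2 and Timp3 lie lower, whereas the dimmest tested Timp2 probe set lies higher.

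Of the 16 Mmp genes, 8 were tested, with 2 called higher and 4 called lower, against 24.0% and 23.0% of all tested genes. The genes that were lower included Mmp2 and its membrane-bound activator Mmp14. Mmp2, the gelatinase that cuts denatured and basement membrane collagen, had 496.6, 568.5 and 550.8 on one probe set (1439364_a_at) in TSR arrays, against 784.8, 822.3 and 842.5 in control arrays. This was a log2 fold change of −0.60 ± 0.06 (SE, adjusted p = 0.000112), and the slightly brighter second probe set (1416136_at) gave −0.50 ± 0.06 (adjusted p = 0.000289). Mmp14 (1448383_at) had 709.9, 716.5 and 728.2 in TSR arrays, against 951.5, 886.5 and 842.7 in control arrays (−0.31 ± 0.06, adjusted p = 0.00192). For both genes the groups did not overlap. A second Mmp14 probe set (1416572_at) was near background and went the other way, with 63.28, 59.34 and 55.93 in TSR arrays and 11.14, 13.32 and 47.44 in control arrays. Its log2 fold change of 1.63 was not called in a limma fit without the filter (adjusted p = 0.0584), and without control array 3 the adjusted p was 0.00297.

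Mmp23, a membrane-linked metalloproteinase of unusual domain structure, had the largest fall among Mmp genes by their brightest probe sets. Its first probe set (1417281_a_at) had 308.4, 305.9 and 315.2 in TSR arrays, against 505.4, 519.1 and 515.3 in control arrays (log2 fold change −0.73 ± 0.06, adjusted p = 2.06e-05). The second (1417282_at) had 224.1, 218.5 and 232.2 in TSR arrays, against 335.4, 373.5 and 345.1 in control arrays (−0.64 ± 0.08, adjusted p = 0.000186). Signals within each group were tight and did not overlap between groups. Mmp24, a membrane-type metalloproteinase, had 58.91, 36.87 and 60.16 in TSR arrays, against 86.33, 88.2 and 72.54 in control arrays (−0.69 ± 0.22, adjusted p = 0.0283). It lay close to background, and leaving out control array 1 or 2 or TSR array 2 ended the call (adjusted p between 0.0681 and 0.0793).

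Mmp11 and Mmp12 were higher. Mmp11 (stromelysin 3), which is known from stromal cells around tumours and in remodelling tissue, had 181.4, 184.8 and 196.8 in TSR arrays, against 126.4, 91.83 and 111.5 in control arrays. Every TSR array was above every control array, and the log2 fold change was 0.78 ± 0.13 (SE, adjusted p = 0.0014). Mmp12, the macrophage elastase, had 134.5, 164.7 and 162.7 in TSR arrays, against 109.5, 68.1 and 114.7 in control arrays (0.69 ± 0.20, adjusted p = 0.0206). It did not pass without TSR array 2 (0.0647) or without TSR array 3 (0.0594). The macrophage marker list, by contrast, had 9 of 10 genes called lower and none higher.

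The probe sets of Mmp9, the gelatinase of neutrophils and macrophages, differed. The brighter (1416298_at) averaged 117.7 ± 10.5 in TSR arrays and 105.3 ± 4.78 in control arrays (SD, n = 3 each; log2 fold change 0.16, adjusted p = 0.312). The dimmer (1448291_at) had 52.71, 65.78 and 17.12 in TSR arrays, against 119.1, 100.6 and 70.53 in control arrays (−1.28 ± 0.45, adjusted p = 0.0456). Its mean log2 signal was above the background limit in control arrays (6.56) but below it in TSR arrays (5.29), so it entered the test through the group in which it was high. TSR array 3 stood far below the other TSR arrays on this probe set, and the call was lost without that array (0.055), without TSR array 1 (0.0509) and without control array 1 (0.133) or 2 (0.0946). Mmp19 was not called on either probe set (0.24 and 0.36, adjusted p of 0.0665 and 0.146). The other 8 Mmp genes were near background. They include Mmp3, Mmp7, Mmp8, Mmp10, Mmp13 and Mmp20, which lie in 1 cluster in RefSeq together with Mmp12, the only member of this cluster that passed the background limit.

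Of the 7 Adamts genes, 5 were tested, with 2 called higher and 2 lower, against 24.0% and 23.0% of all tested genes. Adamts1, which cuts versican and aggrecan, had 996.7, 1019 and 995.3 in TSR arrays, against 548.1, 578.7 and 551.1 in control arrays. The groups were far apart relative to their spread (1004 ± 13.2 in TSR and 559.3 ± 16.9 in control, SD, n = 3 each). The log2 fold change was 0.84 ± 0.05 (SE, adjusted p = 3.08e-06), the largest rise among tested member genes by their brightest probe sets. Adamts5, the main aggrecanase of mouse cartilage and the neighbour of Adamts1 in RefSeq, had 3499, 3857 and 3619 on its brighter probe set (1422561_at) in TSR arrays, against 2858, 2917 and 3274 in control arrays (0.28 ± 0.06, adjusted p = 0.00594). Its second probe set (1450658_at) had 924.2, 947.6 and 913.5 in TSR arrays, against 698.5, 710.2 and 685.1 in control arrays (0.41 ± 0.05, adjusted p = 0.000147). Neither overlapped between groups. Both neighbours were thus higher on every probe set tested.

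Adamts4, the other well-known aggrecanase, was lower on the probe set that passed the background limit (1455965_at), with 39.89, 31.99 and 36.09 in TSR arrays, against 62.48, 56.56 and 67.51 in control arrays. The log2 fold change was −0.79 ± 0.18 (SE, adjusted p = 0.00742), the largest fall among tested member genes by their brightest probe sets, and its second probe set was near background with −0.05. The first entered the test through the control arrays, where its mean log2 signal was 5.95, above the limit, against 5.16 in TSR arrays. Adamts15, also a versican-cutting enzyme, averaged 369.5 ± 7.87 in TSR arrays and 469.6 ± 31.9 in control arrays (SD, n = 3 each), a log2 fold change of −0.34 (adjusted p = 0.00331). Adamts10 (0.21, adjusted p = 0.31) and the ADAMTS-like gene Adamtsl4 (0.13, adjusted p = 0.275) overlapped between groups.

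Of the 25 Adam genes, 9 were tested. By the brightest probe set, none was called higher and 3 were called lower, against 24.0% and 23.0% of all tested genes. Adam9, Adam15 and Adam17, all known as sheddases, were not called by their brightest probe sets. Adam9 had 2429, 2401 and 2407 in TSR arrays, against 2568, 2544 and 2587 in control arrays. The groups did not overlap, but the log2 fold change was only −0.09 ± 0.04 (SE) and was not called (adjusted p = 0.0844). It passed with the methods' t-test (0.00594 on linear and 0.00586 on log2 signals) and with median centring (0.00654). Adam15 (1438760_x_at) had 1408, 1187 and 1427 in TSR arrays and 1337, 1182 and 1562 in control arrays, which overlapped (−0.02 ± 0.10, adjusted p = 0.914), while a dimmer probe set (1416080_at) averaged 322.0 ± 16.6 in TSR arrays and 257.3 ± 4.77 in control arrays (SD, n = 3 each) and was called higher (0.32, adjusted p = 0.00615). The 3 tested probe sets of Adam17, which releases TNF and ligands of the EGF receptor, were not called (log2 fold changes between −0.09 and 0.26).

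Adam10, the sheddase of Notch and many adhesion proteins, was called in opposite directions by its probe sets. The brightest (1428103_at) had 1634, 1350 and 1662 in TSR arrays, against 2105, 1732 and 1962 in control arrays (log2 fold change −0.32 ± 0.09, adjusted p = 0.0203). A dimmer one (1450105_at) had 191.3, 177 and 158 in TSR arrays, against 147.2, 132.2 and 129.2 in control arrays (0.36 ± 0.11, adjusted p = 0.026). Neither overlapped between groups, and neither call held in all alternatives: the first did not pass without control array 1 (0.076), control array 3 (0.055) or TSR array 2 (0.055), and the second without control array 2 (0.0616), control array 3 (0.0719), TSR array 1 (0.102) or TSR array 2 (0.0683). The remaining probe set (1450104_at) was near background, with 20.25, 24.68 and 4.501 in TSR arrays and 6.826, 3.092 and 27.48 in control arrays.

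Adam8, found mainly on leukocytes, whose marker lists were largely called lower as given above, had 97.13, 86.12 and 106.5 in TSR arrays, against 157, 167.8 and 133.3 in control arrays. The groups did not overlap, and the log2 fold change was −0.66 ± 0.14 (SE, adjusted p = 0.00398). Adam12, which is active in muscle and fat cell precursors, averaged 276.5 ± 6.08 in TSR arrays and 404.7 ± 29.9 in control arrays on its brighter probe set (SD, n = 3 each; −0.55, adjusted p = 0.000435), but 51.65 ± 3.15 in TSR arrays and 49.23 ± 5.28 in control arrays on the dimmer (0.07, adjusted p = 0.76). Adam4, Adam19 and Adam33 were not called, with log2 fold changes between −0.11 and −0.06.

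**Figure D3:**
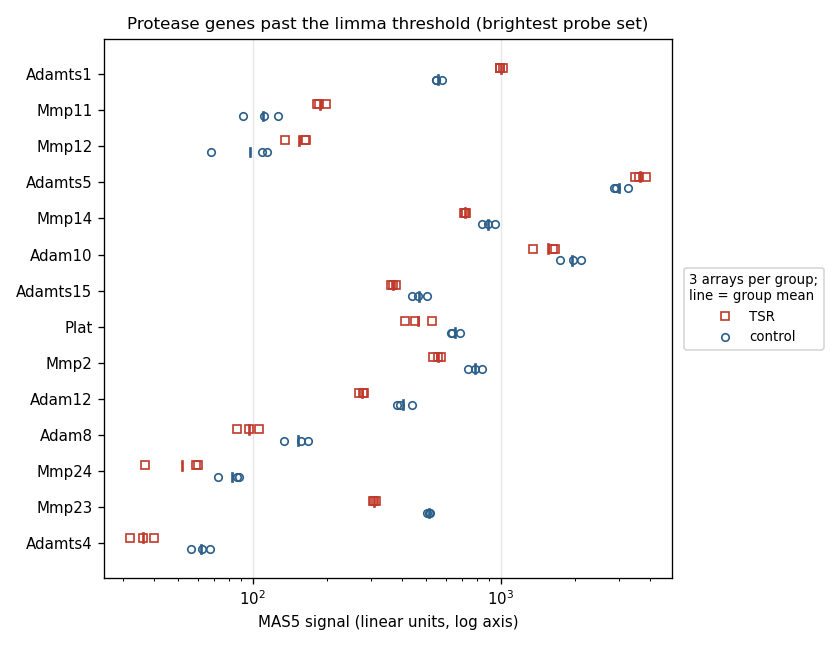
MAS5 signal (linear units on a log axis) of the 14 protease genes past the limma threshold, each by its brightest probe set, in 3 TSR arrays (squares) and 3 control arrays (circles), with a line at each group mean. The upper 4 genes were higher in TSR arrays, Adamts1 with about 1004 against 559.3, and the lower 10 were lower.

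In the plasminogen system, Plat (tissue plasminogen activator) was lower, with 452.4, 412.2 and 527.2 in TSR arrays, against 639.9, 632.8 and 686.8 in control arrays. The groups did not overlap and the log2 fold change was −0.50 ± 0.09 (SE, adjusted p = 0.00186). Plau (urokinase) had 284.9, 293.2 and 261.5 in TSR arrays and 285.3, 355.2 and 318.3 in control arrays on its brighter probe set (1422139_at), which overlapped (−0.19 ± 0.10, adjusted p = 0.137). Its second probe set (1422138_at) was near background, with 58.62, 54.2 and 43.94 in TSR arrays and 31.74, 26.08 and 37.11 in control arrays, and was not called without the filter (0.73, adjusted p = 0.0703). The urokinase receptor Plaur had 152.8, 134.2 and 159.2 in TSR arrays and 183.8, 114.7 and 125.7 in control arrays, with a log2 fold change of 0.10 ± 0.18 (adjusted p = 0.67). The TSR signals of Plaur lay inside the range of the control signals.

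Proteases and inhibitors were then set side by side. Of 24 tested protease genes, 4 were called higher and 10 lower (16.7% and 41.7%), against 24.0% and 23.0% of all tested genes. Their log2 fold changes ran from −0.79 to 0.84 around a median of −0.10. Of the 5 inhibitor genes, 1 was called higher and 3 lower, and their log2 fold changes ran from −0.46 to 0.35 around a median of −0.37. The protease median was −0.20 after quantile normalization and −0.19 after median centring. Averaging the probe sets of each gene moved the inhibitor median to −0.215 and left 2 inhibitor genes called lower, Timp3 and Reck. Among proteases, averaging gave 5 called higher and 8 lower, with a median of −0.102. Adam10 (0.02, limma adjusted p = 0.837) and Adam12 (−0.24, adjusted p = 0.0923) were then not called. Adam15 was then called higher (0.24, adjusted p = 0.0413). Both groups of genes thus held members in either direction. Array by array, relative to the control mean, the median protease gene was at −0.09, −0.18 and −0.15 on the log2 scale in TSR arrays and between −0.01 and 0.02 in control arrays. The median inhibitor gene was at −0.43, −0.36 and −0.39 in TSR arrays and between −0.05 and 0.03 in control arrays. The median over all 8619 tested genes was between 0.00 and 0.02 in TSR arrays and between −0.01 and 0.01 in control arrays.

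Differences between the log2 changes of a pair of genes within an array do not depend on how the arrays were scaled, and 6 such pairs were computed from the brightest probe sets. Adamts1 moved up relative to Timp3 by 1.23, 1.23 and 1.29 in TSR arrays, against 0.05, −0.01 and −0.05 in control arrays. Adamts5 moved up relative to the same inhibitor by 0.62, 0.72 and 0.73 in TSR arrays, against 0.01, −0.10 and 0.10 in control arrays. Timp4 moved up by 0.82 relative to Timp2 and by 0.76 relative to Timp3. Each of these 4 pairs joins a gene that was higher with one that was lower, so the lack of overlap between groups follows from the single genes. Their exact permutation p-values were thereby fixed at 0.1 and are not read as tests. They enter only the adjustment over the 6 pairs below. Mmp2 relative to Timp2 was at −0.02, −0.06 and −0.04 in TSR arrays, against 0.05, 0.02 and −0.07 in control arrays, a mean difference of −0.04 (exact two-sided permutation p = 0.4, where 3 against 3 arrays cannot go below 0.1, and 0.4 after Benjamini-Hochberg adjustment over the 6 pairs). Mmp14 relative to Timp2 differed by 0.15 (exact permutation p = 0.3, adjusted 0.36). The values of Mmp2 and Mmp14 relative to Timp2 overlapped between groups, which does not show that these pairs changed alike.

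**Figure D4:**
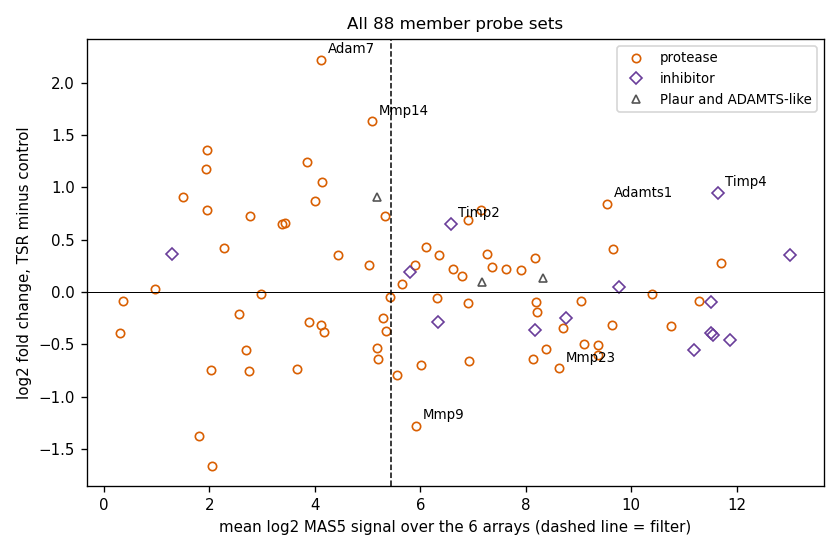
Log2 fold change (TSR minus control, y axis) against mean log2 MAS5 signal over the 6 arrays (x axis) for all 88 member probe sets, by class, with the background limit of 5.45 as a dashed line. Left of the line lie 37 probe sets, where log2 fold changes spread widely (Adam7 at 2.22), and right of it lie the 51 that were tested.

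Near background lay 37 probe sets, of which 30 belonged to the 27 genes with no tested probe set and 7 to genes described above. The 27 genes were 8 Mmp genes, 16 Adam genes, Adamts7, Adamts8 and Adamtsl5. The brightest probe set of 14 of the 27 was under the 25th percentile of the array on all 6 arrays. The groups did not overlap in 10 of the 37 probe sets, against 17.3% of all probe sets below the limit. In a limma fit without the filter, 2 of the 37 passed, beside 3609 called higher and 2799 lower of all 22626 probe sets. Adam7, known from the epididymis, had 46.4, 31.81 and 35.68 in TSR arrays, against 3.676, 8.901 and 15.86 in control arrays. Every control signal was under the 25th percentile of its array, so TSR was at least 1.70-fold higher (the mean log2 signal of TSR arrays against these percentiles, adjusted p = 0.022). The call was lost when any 1 TSR array was left out, with adjusted p of 0.0824, 0.053 and 0.0647. Of 8 epididymis markers measured, a list that holds Adam7 and Adam28, none passed the background limit. The 2 with a higher mean in TSR arrays were Adam7 itself and Eppin (20.64 in TSR, 3.571 in control), and the others had a lower mean. The part of epididymal RNA was not tested. Adamtsl5 had 49.59, 50.74 and 49.18 in TSR arrays, against 22.99, 36.17 and 22.61 in control arrays (0.91, adjusted p = 0.0451).

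Adam1a and Adam1b, a pair of neighbouring genes known from sperm, had no call. Adam1a had 20.7, 19.26 and 27.39 in TSR arrays and 8.314, 7.51 and 13.08 in control arrays. Every control signal was under the 25th percentile of its array, so the fold is only a bound, at least 1.003. The difference was not called (limma without the filter, adjusted p = 0.0538). One Adam1b probe set (1432657_at) had 2.324, 1.377 and 3.16 in TSR arrays and 3.336, 5.559 and 9.515 in control arrays. All were below the 25th percentile, so that no fold is given. The brighter Adam1b probe set (1454317_at) went the other way, with 16.69, 32.15 and 30.35 in TSR arrays and 12.35, 8.293 and 17.9 in control arrays. Its groups overlapped (limma without the filter, adjusted p = 0.13).

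Several genes were thus read differently by different probe sets. Of 12 genes with more than 1 tested probe set, Timp4, Adamts5, Mmp2 and Mmp23 had every probe set called in 1 direction, whereas Timp2 and Adam10 had calls in both. Array probe sets sit at different places along a transcript, and the control RNAs read at both ends differed between the groups. Beta-actin had a log2 difference of its 5′ minus its 3′ probe set of −0.67 ± 0.001 in TSR and −1.22 ± 0.01 in control (SD, n = 3 each), and Gapdh of 0.14 ± 0.05 in TSR and −0.52 ± 0.07 in control. Whether this bears on the disagreement between probe sets, or on the size of the changes called, was not tested. The difference ran with the groups, so in the calls it cannot be told apart from TSR.

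The wider pathway was described with lists of genes outside the members. Their counts stand beside 24.0% called higher and 23.0% called lower among all tested genes. Of 14 measured genes of the plasminogen system and of protease regulation, 12 were tested, with 5 called higher and 2 lower. Plg, which encodes plasminogen, averaged 201.7 ± 28.3 in TSR arrays and 22.1 ± 5.68 in control arrays (SD, n = 3 each, adjusted p = 9.16e-06), and Serpinf2, the plasmin inhibitor, averaged 94.91 ± 19.2 in TSR arrays and 40.73 ± 3.69 in control arrays (SD, n = 3 each, adjusted p = 0.00114). The control means of both were under the background limit of 43.8, so they entered the test through the TSR arrays and no fold is given. The matrix protein Thbs2 had a log2 fold change of 1.86 (adjusted p = 1.86e-06). Plg and Serpinf2 are made chiefly by the liver, and 8 of the 9 tested hepatocyte markers were called higher on the same arrays. Some of these markers also entered the test through the TSR arrays, as given above. Of the 2 genes of protease regulation called lower, Tfpi2, an inhibitor of plasmin, had the larger change (−0.59, adjusted p = 0.00951). Of 7 tested genes that help ADAM proteases to mature or reach their substrates, 4 were called higher and none lower, and all were tetraspanins of the group that escorts Adam10 (Tspan17 0.78, Tspan5 0.75, Tspan15 0.48 and Tspan14 0.35 on the log2 scale, adjusted p between 6.38e-05 and 0.0122).

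The matrix proteins on which these enzymes act were measured on the same arrays. Of 23 tested genes of this list, 4 were called higher and 12 lower, against 24.0% and 23.0% of all tested genes. Their median log2 fold change was −0.13. The largest falls were in the proteoglycans Lum (1067 in TSR, 2097 in control, −0.98, adjusted p = 2.86e-06) and Vcan, the versican that Adamts1 and Adamts5 cut (183.2 in TSR, 335.1 in control, −0.87, adjusted p = 0.000107), and in Col6a3 (1584 in TSR, 2821 in control, −0.83, adjusted p = 3.04e-06). Of the 4 that were higher, the basement membrane collagen Col15a1 had the largest change (410.0 in TSR, 229.8 in control, 0.85, adjusted p = 0.000476). This list shares Lum, Dcn, Col1a1, Col1a2 and Col3a1 with the fibroblast markers.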

How the data were processed

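The samples were 3 TSR and 3 control samples of epididymal WAT, each on 1 Affymetrix Mouse Genome 430A 2.0 array. The authors computed the deposited signal intensities on a linear scale with MAS5 in Expression Console (versions are not given in the sources used here), which brings every array to one target and subtracts background, so that low signals are uncertain. The methods name RNAlater and a lipid tissue kit, the labels liquid nitrogen and Trizol. Gene symbols came from the platform annotation (20393 probe sets with 1 symbol, 691 with several, 1606 with none).

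After the 64 control probe sets were dropped, the dimmest 35% by mean log2 signal were set aside as near background, in place of the authors' expression calls. The remaining 14707 were tested two-sided in R 4.3.3 with limma 3.58.1, using eBayes with a trend on intensity (4.86 prior degrees of freedom, threshold 0.05). Within groups the median SD of log2 signals was 0.10, and precision is limited by the few arrays. Exact permutation tests used scipy 1.17.1. The test was also run on simulated arrays with independent noise and changes planted in few probe sets. That setting differs from these data, and no result here rests on it. A fold is a bound where all control signals were under the 25th percentile of the array.

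The members and all lists were chosen with earlier results of these data known. Values per array were given for every inhibitor and plasminogen activation gene, for the 5 brightest protease genes, for probe sets past the threshold with an absolute log2 fold change of at least 0.58 (near background, at least 1 with no overlap), and for genes with calls in opposite directions. Second probe sets of Mmp2, Mmp9 and Adamts5 and the brighter one of Adam1b were added after their values were seen. So were Adamtsl5 and the averages of Adam12, Adam15 and Adamts15. Of the other lists, up to 4 called genes with the largest changes were named.

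Alternatives were no filter or one at 50%, quantile normalization or median centring, a floor at the 25th percentile, limma without the trend, the methods' t-test on linear and on log2 signals, the replicate block, averaged probe sets per gene, and each array left out. Replicate numbers were not treated as pairs: deviations of arrays with the same number correlated with r of 0.015, 0.19 and 0.17. Promoters came from RefSeq (GRCm38.p6). Protein sequences were not used here. Control probe sets other than those of the beta-actin and Gapdh ends, probe sets with several genes and the qPCR of the study were not analysed here.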

Additional observations from a re-analysis of the deposited data

How the results depend on the processing

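No direction among the named probe sets reversed under the alternatives where the main comparison had made a call, and all counts of members called stayed within 1.5 times. The median log2 fold change of protease genes was −0.20 with quantile normalization and −0.19 with median centring, against −0.10. That of inhibitor genes was −0.46 with median centring and −0.215 when all probe sets of a gene were averaged, against −0.37, and between −0.415 and −0.294 when 1 array was left out (−0.294 without control array 3, −0.415 without TSR array 2). Over all probe sets, median centring gave 2673 higher and 4236 lower and quantile normalization 3099 and 3380, against 3768 and 3082, and the members then split into 9 higher and 22 lower, or 9 and 19, against 10 and 19. Of the named probe sets called, 9 lost the call under at least 1 alternative. Beside the left-out arrays given in the report, the methods' t-test on linear and on log2 signals gave 0.0776 and 0.113 for Mmp12, 0.0515 and 0.0533 for Adamts5 1422561_at, 0.0693 and 0.102 for Mmp24, 0.125 and 0.197 for Mmp9 1448291_at, 0.119 and 0.126 for Adam10 1428103_at, 0.0626 and 0.0573 for Adam10 1450105_at, and 0.0658 and 0.0656 for Timp3 1449334_at, and on log2 signals 0.0893 for Adam7. Without the filter Mmp24 was at 0.0671 and Mmp9 1448291_at at 0.0985. Limma without the trend gave 0.089 for Mmp9 1448291_at, 0.0577 for Adam10 1428103_at and 0.0511 for Adam7. Adam10 1450105_at was at 0.0868 with quantile normalization and 0.077 with median centring. With the replicate block, 10 member probe sets were higher and 19 lower, and the medians were −0.102 for proteases and −0.368 for inhibitors, as without it. Over all probe sets the block gave 4043 higher and 3391 lower. The labels do not say whether the numbers mark pairs, and 2 of 3 TSR arrays correlated best with the control array of their own number. Calls on signals near the limit of 43.8 (Adamts4, Mmp24, Mmp9 1448291_at) and everything below it rest on few units of signal.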

Other observations

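Of 15 tested genes whose products ADAM proteases release from the cell surface, 1 was called higher and 5 lower, beside 24.0% higher and 23.0% lower among all tested genes, and their median log2 fold change was −0.08. The Notch ligand Jag1 averaged a signal of 326.7 in TSR arrays and 175.1 in control arrays (log2 fold change 0.90, limma adjusted p = 4.44e-05). The hyaluronan receptor Cd44 (298.4 in TSR, 438.0 in control, −0.55, adjusted p = 0.000534), the other Notch ligand of the list Dll1 (188.2 in TSR, 241.4 in control, −0.36, adjusted p = 0.00685) and the TNF receptor Tnfrsf1b (177.9 in TSR, 219.3 in control, −0.30, adjusted p = 0.0153) were lower.

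Of 15 tested extracellular proteases and inhibitors of other families, 1 was called higher and 6 lower, against 24.0% and 23.0% of all tested genes. Their median log2 fold change was −0.24. The serine protease Htra3 was the one that was higher (2840 in TSR, 1773 in control, 0.68, adjusted p = 1.06e-05). The collagen-cutting cathepsin Ctsk (233.0 in TSR, 425.6 in control, −0.87, adjusted p = 5.11e-05), the procollagen processing enhancer Pcolce (1046 in TSR, 1906 in control, −0.87, adjusted p = 4.96e-06) and the serine protease Prss23 (1964 in TSR, 2911 in control, −0.58, adjusted p = 0.0043) had the largest falls. Ctsk and Pcolce moved in the direction of the fibroblast markers, and the part of that list was not tested.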
